A study of Mus musculus with 4 samples.

Results

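The 36 genes described here encode the contractile apparatus and actin cytoskeleton: actins, myosin chains and their kinase, thin filament binders, intermediate filament and dense body proteins, actin crosslinkers and cell-matrix adhesion proteins. They were chosen by symbol, and all 36 were among the 16305 genes counted in the series. The question was which of them smooth muscle wells, pericyte wells and contractile fibroblast wells share, and which they do not.

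The series has 1 group: sorted cancer-associated fibroblasts (CAFs) of untreated APTKA tumours, which grew orthotopically in the colon of female C57BL6J mice. APTKA is the label's name of the transplanted tumour model. There were 4 plates, 1 for each of the tumours numbered I to IV in the labels, and each plate had 384 wells meant to hold 1 sorted cell each. The labels give no mouse per tumour, so the spread between tumours may be smaller than that between animals. Messenger RNA was counted by SORT-seq, a plate method that reads the 3′ ends of transcripts and counts molecules through unique molecular identifiers (UMIs).

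Of 1536 wells, 740 were kept, with at least 1000 transcripts other than spike-ins and at most 30% mitochondrial transcripts: 43, 250, 243 and 204 in tumours 1 to 4. The plates held between 612734 and 3165550 transcripts, and kept wells had a median of 5552 to 9474. Tumour 1 stood apart: it had the fewest kept wells, the highest median mitochondrial share in kept wells (14.4%, against 5.25 to 6.14% in tumours 2 to 4) and a sequencing run of its own. The run and tumour 1 cannot be told apart.

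Smooth muscle cells and pericytes are the mural cells of vessels, and smooth muscle also forms the muscle layers of the colon wall. Their contraction is switched by calcium: myosin light chain kinase phosphorylates the regulatory light chain, myosin II pulls on actin filaments, and the force passes through dense bodies and adhesions to the matrix. Activated fibroblasts, or myofibroblasts, build a related apparatus of stress fibres from smooth muscle α-actin and nonmuscle myosin. Many of these genes are targets of serum response factor, which binds a DNA motif named the CArG box.

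Wells were sorted into classes by markers that are not among the 36 genes. A well was called smooth muscle or pericyte when the markers of that list summed to at least 10 transcripts per 10000 and at least 3 were detected; the lists held 11 smooth muscle markers (Myocd, Kcnmb1, Pln and others) and 10 pericyte markers (Rgs5, Notch3, Kcnj8 and others). A fibroblast well passed neither rule and had at least 4 of 10 fibroblast markers such as Col1a1 and Pdgfra. The 25% of fibroblast wells in each tumour with the highest score for 10 matrix genes of myofibroblasts (Postn, Tnc, Cthrc1 and others) is called matrix-myofibroblast here, and the rest other fibroblast. This gave 27 smooth muscle wells, 43 pericyte wells, 153 matrix-myofibroblast wells and 454 other fibroblast wells; 60 wells passed the rule of another type, mostly red cells (39) and interstitial cells of Cajal (17), and were left out. The score of matrix-myofibroblast wells is a range and not a type: 59 wells lay within 0.1 of the value that divides it, which in tumour 4 was 1.49 on both sides.

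The transcripts of each class were summed per tumour where it had at least 5 wells. Levels below are transcripts per 10000 in such a sum, given for tumours 1, 3 and 4 in smooth muscle wells, tumours 2, 3 and 4 in pericyte wells, and tumours 1 to 4 in both fibroblast classes, in that order. The tumour missing from each mural class had too few wells (3 smooth muscle wells in tumour 2, 1 pericyte well in tumour 1). Classes were compared with edgeR's quasi-likelihood test with tumour as a block. Fold changes are log2 values ± standard error, and an adjusted p under 0.05 (Benjamini-Hochberg, over all 4342 genes tested) counts as higher or lower. All 36 genes passed the filter on low counts, which was applied over the sums of all 4 classes; some would not pass it in a pair of classes alone.

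By Myh11, which was not used to sort the classes, most smooth muscle wells matched their name. It reached 10 per 10000 in 22 of 27 smooth muscle wells and 8 of 43 pericyte wells, against 15 of 607 fibroblast wells. The marker lists themselves set the classes; the pericyte list summed to 2.2 to 16.1 per 10000 in smooth muscle wells and 31.8 to 38.8 in pericyte wells, against 1.61 to 2.75 in other fibroblast wells. Some wells went against their class: 3 smooth muscle wells, all in tumour 4, had under 10 per 10000 of both Myh11 and Acta2, 9 pericyte wells had neither Rgs5 nor Notch3, 10 wells passed both mural rules, and 14 of the 15 fibroblast wells with Myh11 were other fibroblast wells. The fibroblast marker list summed to 103 to 173 per 10000 in smooth muscle wells and 197 to 398 in pericyte wells, against 537 to 644 in matrix-myofibroblast wells and 352 to 608 in other fibroblast wells. The matrix-myofibroblast list did not set the mural wells apart. It summed to 21.6 to 49.7 per 10000 in smooth muscle wells, 38 to 42.2 in pericyte, 28.8 to 78.7 in matrix-myofibroblast and 15.5 to 28.8 in other fibroblast wells. Cajal cell markers summed to 1.67 to 2.38 per 10000 in pericyte wells, against 0.0671 to 0.324 in other fibroblast wells. All 8 endothelial markers were at 0 in smooth muscle wells, and the list summed to 0.392 to 1.43 per 10000 in pericyte wells. Genes induced by tissue dissociation summed to 51.1 to 175 per 10000 in smooth muscle wells, 77 to 99.4 in pericyte wells, 23.2 to 96.1 in matrix-myofibroblast wells and 20.6 to 164 in other fibroblast wells; their part in the results was not tested.

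Of the 36 genes, 32 had a promoter in the RefSeq table (GRCm38.p6; 250 bases before to 50 after the gene's start), and 5 of these held a full CArG box, which was searched on both strands. Of 27025 genes in the table, 488 (1.81%) held one. The 5 stretches of 80 bases are shown because the genes span the patterns described below, from both mural classes (Myl9, Vcl) to smooth muscle wells (Myl6) and no class (Actg1, Cnn2); the box is in capitals, each sequence runs 5′ to 3′ on the gene's strand, and a match is not evidence of binding.
Myl9, chr2:156775268-156775347, plus strand, box 161 to 152 bases before the start: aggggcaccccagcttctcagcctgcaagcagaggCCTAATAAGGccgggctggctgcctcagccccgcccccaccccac
Vcl, chr14:20929148-20929227, plus strand, box 227 to 218 bases before the start: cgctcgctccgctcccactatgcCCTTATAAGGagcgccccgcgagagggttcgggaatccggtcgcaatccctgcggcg
Myl6, chr10:128493015-128493094, minus strand, box 50 to 41 bases before the start: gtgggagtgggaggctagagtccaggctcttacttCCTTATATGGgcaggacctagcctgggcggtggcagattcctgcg
Actg1, chr11:120348541-120348620, minus strand, box 90 to 81 bases before the start: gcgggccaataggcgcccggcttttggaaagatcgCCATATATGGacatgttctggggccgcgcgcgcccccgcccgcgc
Cnn2, chr10:79988509-79988588, plus strand, box 56 to 47 bases before the start: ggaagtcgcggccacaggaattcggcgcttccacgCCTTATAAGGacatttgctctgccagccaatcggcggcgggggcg

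Smooth muscle wells stood furthest from the other fibroblast wells: 28 of the 36 genes were higher and none was lower, against 5.34% of all genes tested called higher in that comparison and 7.19% lower. In pericyte wells 17 of 36 were higher and none lower, against 4.12% of all genes higher and 5.07% lower, 9.19% in all. In matrix-myofibroblast wells 2 of 36, Myh9 and Actn1, were higher, against 2.3% of all genes called higher. The median log2 fold change of the 36 genes was 2.07, 1.05 and 0.30 in smooth muscle, pericyte and matrix-myofibroblast wells, against -0.08, -0.00 and -0.01 over all genes tested. These 3 comparisons share the other fibroblast wells.

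The α-actinin Actn1 was the 1 gene called higher in all 3 classes. Both mural classes, but not matrix-myofibroblast wells, were called higher for 14 genes: Acta2, Myl9, Mylk, Tagln, Cnn1, Tpm1, Tpm2, Cald1, Lmod1, Des, Actn4, Vcl, Tln1 and Itgb1. Of these, Lmod1 could be tested in pericyte against other fibroblast wells only with the other classes in the fit. A further 13 were called in smooth muscle wells alone: Actg2, Actb, Myh11, Myl6, Smtn, Synpo2, Csrp1, Pdlim3, Pdlim7, Flna, Lpp, Fblim1 and Itga5. Myh9 was called in pericyte and matrix-myofibroblast wells, and Tpm4 in pericyte wells alone. Actg1, Myh10, Cnn2, Cnn3, Synm and Zyx were called in no class. A call in 1 class and not in another does not show that the classes differ; the direct tests are given with each gene.

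**Figure D1:**
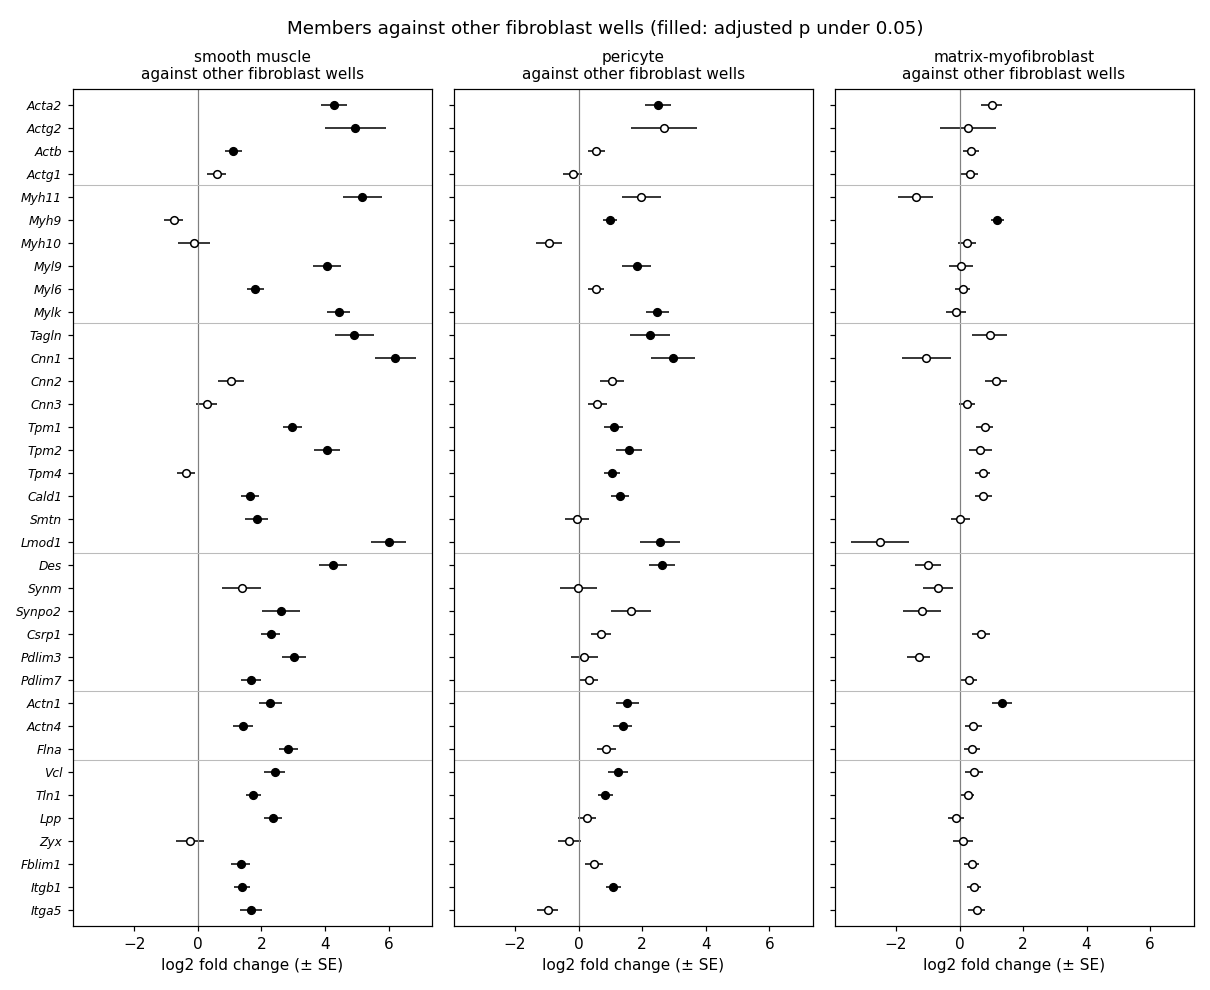
Log2 fold change (x axis, bars: standard error) of each of the 36 genes (rows, divided by lines into the 6 roles, from actins at the top to adhesions at the bottom) in smooth muscle, pericyte and matrix-myofibroblast wells against other fibroblast wells; filled points have an adjusted p under 0.05. Filled points number 28, 17 and 2 of 36, and all lie right of 0.

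The actins split by isoform. Acta2, smooth muscle α-actin, stood at 172, 170 and 84.7 per 10000 in smooth muscle wells and 94.7, 25.5 and 20.6 in pericyte wells. Matrix-myofibroblast wells had 30.6, 15.2, 10.4 and 11.2 per 10000 and other fibroblast wells 17.8, 6.46, 4.64 and 5.12. In smooth muscle wells with Myh11 of at least 10 per 10000, Acta2 was at 199, 170 and 162 in tumours 1, 3 and 4. The mural tumours all lay above every other fibroblast value, and tumour 2 was the high one among pericyte wells. The pericyte and matrix-myofibroblast ranges overlapped only through tumour 1, which has no pericyte sum. In each of tumours 2 to 4 the pericyte value was the higher. The fold change against other fibroblast wells was 4.27 ± 0.41 (adjusted p = 4.99e-05) in smooth muscle wells, 2.50 ± 0.40 (adjusted p = 0.00144) in pericyte wells and 1.01 ± 0.34 (adjusted p = 0.113) in matrix-myofibroblast wells. Acta2 was also higher in smooth muscle than in pericyte wells, by 1.77 ± 0.44 (adjusted p = 0.0341). Actg2, the γ-actin of visceral smooth muscle, stood at 29.9, 29.3 and 10.2 per 10000 in smooth muscle wells and 9.13, 2.95 and 0.749 in pericyte wells. Matrix-myofibroblast wells had 0.419, 0.745, 0.684 and 0.791 per 10000 and other fibroblast wells 5.83, 0.27, 0.114 and 0.342. In smooth muscle wells with Myh11 the tumour 4 level of Actg2 was 19.8. Actg2 spread widely within every class but the matrix-myofibroblast wells, and pericyte tumours overlapped with the other fibroblast value of tumour 1. Its fold change was 4.96 ± 0.95 (adjusted p = 0.00361) in smooth muscle wells and 2.68 ± 1.03 (adjusted p = 0.143) in pericyte wells, and 2.28 ± 1.02 (adjusted p = 0.233) between the mural classes.

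The cytoplasmic actins, present in every cell, moved less. Actb (β-actin) stood at 76.3, 71.4 and 46.4 per 10000 in smooth muscle wells, 70.8, 38.9 and 43 in pericyte wells, 33.4, 43.2, 34.5 and 42.3 in matrix-myofibroblast wells and 24.5, 27.8, 32.1 and 31 in other fibroblast wells, and was called in smooth muscle wells with 1.12 ± 0.27 (adjusted p = 0.0141). Actg1 (cytoplasmic γ-actin), whose promoter has the CArG box shown above, was at 28 to 30.9 per 10000 in smooth muscle wells, 16.8 to 27.7 in pericyte wells, 18.2 to 29.9 in matrix-myofibroblast wells and 10.1 to 25.9 in other fibroblast wells. Smooth muscle values of Actg1 overlapped with those of matrix-myofibroblast wells and lay just above the rest, and its fold change in smooth muscle against other fibroblast wells was 0.60 ± 0.30 (adjusted p = 0.224). The actin genes are near-identical in coding sequence, and how reads that match several were counted is not given in the sources used here.

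**Figure D2:**
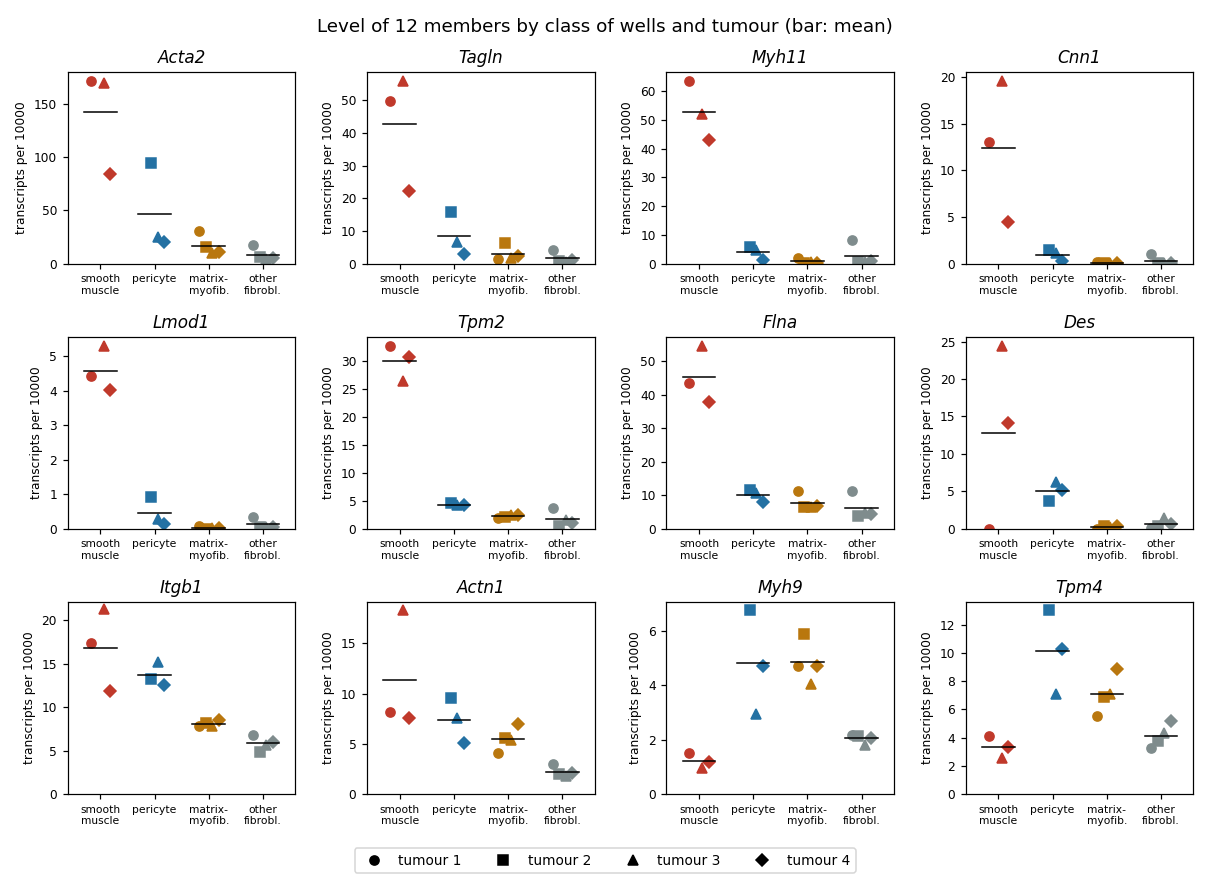
Level of 12 genes (y axis, transcripts per 10000) in the summed wells of each class (x axis) and tumour (marker shape), with the mean as a bar. Smooth muscle wells are highest for Tpm2 and Flna in every tumour, Itgb1 is close in both mural classes, and Myh9 and Tpm4 are lower in smooth muscle than in pericyte wells.

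Of the myosin heavy chains, the smooth muscle chain Myh11 was higher in smooth muscle than in pericyte wells and the nonmuscle chain Myh9 was lower. Myh11, the smooth muscle heavy chain, stood at 63.6, 52.2 and 42.9 per 10000 in smooth muscle wells and 5.67, 4.77 and 1.43 in pericyte wells. Matrix-myofibroblast wells had 2.01, 0.248, 0.622 and 0.198 per 10000 and other fibroblast wells 8.33, 0.588, 0.482 and 0.799. No smooth muscle tumour overlapped with any other class, and tumour 1 was high among other fibroblast wells. The fold change was 5.18 ± 0.61 (adjusted p = 0.000111) in smooth muscle wells against other fibroblast wells and 3.21 ± 0.66 (adjusted p = 0.0139) against pericyte wells. In pericyte wells it was 1.97 ± 0.61 (adjusted p = 0.0592) against other fibroblast wells and 3.35 ± 0.61 (adjusted p = 0.00446) against matrix-myofibroblast wells.

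Myh9, the heavy chain of nonmuscle myosin IIA, stood at 1.52, 0.962 and 1.19 per 10000 in smooth muscle wells and 6.77, 2.94 and 4.7 in pericyte wells. Matrix-myofibroblast wells had 4.7, 5.9, 4.04 and 4.71 per 10000 and other fibroblast wells 2.15, 2.14, 1.81 and 2.06. Every smooth muscle value was the lowest of its tumour, and every matrix-myofibroblast value was above every other fibroblast value. Myh9 was lower in smooth muscle than in pericyte wells, with -1.76 ± 0.31 (adjusted p = 0.00574), and lower than in matrix-myofibroblast wells, with -1.95 ± 0.28 (adjusted p = 0.000637). Against other fibroblast wells Myh9 was not called in smooth muscle wells, with -0.76 ± 0.29 (adjusted p = 0.105). It was higher than in other fibroblast wells by 1.0 ± 0.22 (adjusted p = 0.0107) in pericyte wells and 1.19 ± 0.20 (adjusted p = 0.00361) in matrix-myofibroblast wells. Both lower calls depend on how smooth muscle is set: with Myh11 of at least 10 per 10000 in place of the marker list, Myh9 was at -0.53 (adjusted p = 0.401) against pericyte wells and -0.85 (adjusted p = 0.0836) against matrix-myofibroblast wells. Myh10, the heavy chain of nonmuscle myosin IIB, stood under 1 per 10000 in every tumour and class and was called in no comparison.

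The light chains and the kinase were graded. Myl9, the regulatory light chain, stood at 33.4, 37 and 16.6 per 10000 in smooth muscle wells and 8.87, 4.22 and 2.45 in pericyte wells. Matrix-myofibroblast wells had 1.93, 1.18, 1.94 and 1.21 per 10000 and other fibroblast wells 3.84, 0.705, 1.27 and 1.13. Its values in smooth muscle wells lay above those of all other classes, with 4.07 ± 0.44 (adjusted p = 7.36e-05) in smooth muscle wells and 1.82 ± 0.45 (adjusted p = 0.0197) in pericyte wells against other fibroblast wells, and 2.25 ± 0.50 (adjusted p = 0.0182) between the mural classes. Mylk, the kinase that starts contraction, stood at 49, 41.6 and 22.1 per 10000 in smooth muscle wells and 11.3, 6.1 and 4.9 in pericyte wells. Matrix-myofibroblast wells had 3.53, 0.887, 1.32 and 0.974 per 10000 and other fibroblast wells 4.58, 1.02, 0.946 and 1.04. The 3 groups smooth muscle, pericyte and fibroblast did not overlap for Mylk. The fold change of Mylk was 4.43 ± 0.37 (adjusted p = 1.74e-05) in smooth muscle wells and 2.48 ± 0.36 (adjusted p = 0.000705) in pericyte wells against other fibroblast wells, and 1.94 ± 0.39 (adjusted p = 0.0128) between the mural classes. Myl6, the essential light chain that smooth muscle and nonmuscle myosin share, was higher in smooth muscle wells (28.8 to 56.8 per 10000) than in pericyte wells (12.4 to 23.3 per 10000), by 1.27 ± 0.30 (adjusted p = 0.0265); matrix-myofibroblast and other fibroblast wells stood at 11.6 to 12.1 and 9.4 to 14.7 per 10000.

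The thin filament binders held the largest fold change of the set in both mural classes against other fibroblast wells. Tagln (transgelin), an early marker of smooth muscle, stood at 49.6, 55.9 and 22.3 per 10000 in smooth muscle wells and 15.7, 6.65 and 3 in pericyte wells. Matrix-myofibroblast wells had 1.51, 6.19, 1.87 and 2.33 per 10000 and other fibroblast wells 4.19, 0.931, 0.641 and 1.1. The pericyte and matrix-myofibroblast ranges overlapped, though the pericyte value was the higher in each of tumours 2 to 4. Smooth muscle tumours stood above both. In smooth muscle wells with Myh11 of at least 10 per 10000 the tumour 4 level was 42.8 for Tagln and 8.73 for Cnn1. The fold change of Tagln was 4.92 ± 0.61 (adjusted p = 0.000151) in smooth muscle wells and 2.25 ± 0.62 (adjusted p = 0.034) in pericyte wells against other fibroblast wells, and 2.67 ± 0.65 (adjusted p = 0.0304) between the mural classes. Cnn1, the calponin of differentiated smooth muscle, stood at 13, 19.6 and 4.51 per 10000 in smooth muscle wells and 1.45, 1.18 and 0.272 in pericyte wells. Matrix-myofibroblast wells had 0.168, 0.0331, 0.0746 and 0.0564 per 10000 and other fibroblast wells 1.01, 0.0858, 0.0508 and 0.06. It was at 0 in 8 of 27 smooth muscle wells, against 35 of 43 pericyte wells, and after thinning to 3000 UMIs in 6 of 20 smooth muscle wells, against 33 of 38 pericyte wells. The fold change of Cnn1 was 6.21 ± 0.64 (adjusted p = 6.4e-05) in smooth muscle wells and 2.98 ± 0.69 (adjusted p = 0.0138) in pericyte wells against other fibroblast wells, and 3.23 ± 0.68 (adjusted p = 0.0148) between the mural classes.

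Lmod1, leiomodin, which nucleates actin filaments in smooth muscle, was at 4.42, 5.29 and 4.03 per 10000 in smooth muscle wells and 0.918, 0.294 and 0.136 in pericyte wells, against 0.0838, 0, 0.0124 and 0.0141 in matrix-myofibroblast wells and 0.336, 0.0613, 0.0571 and 0.042 in other fibroblast wells. The fibroblast levels of Lmod1 rest on 3 transcripts in all matrix-myofibroblast wells and 31 in all other fibroblast wells. With only the pericyte and other fibroblast sums, Lmod1 did not pass the low-count filter. Its fold change was 6.0 ± 0.54 (adjusted p = 3.26e-05) in smooth muscle wells and 2.57 ± 0.63 (adjusted p = 0.0195) in pericyte wells against other fibroblast wells, and 3.43 ± 0.62 (adjusted p = 0.00591) between the mural classes. Smtn (smoothelin), which marks contractile smooth muscle, was higher in smooth muscle wells (1.65, 7.1 and 3.56 per 10000) than in pericyte wells (1.06, 1.08 and 1.22 per 10000), by 1.90 ± 0.43 (adjusted p = 0.0187). Matrix-myofibroblast wells at 0.838 to 1.21 and other fibroblast wells at 0.784 to 1.54 per 10000 had the Smtn level of pericyte wells within the spread between tumours.

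The tropomyosins, which lie along the actin filament and set its access to myosin, split in a like way. Tpm2 stood at 32.7, 26.5 and 30.7 per 10000 in smooth muscle wells and 4.59, 4.17 and 4.22 in pericyte wells. Matrix-myofibroblast wells had 1.85, 2.07, 2.54 and 2.46 per 10000 and other fibroblast wells 3.77, 0.557, 1.62 and 1.1. The smooth muscle values were close together and far above all others. Its fold change was 4.06 ± 0.40 (adjusted p = 5.99e-05) in smooth muscle wells and 1.59 ± 0.41 (adjusted p = 0.023) in pericyte wells against other fibroblast wells, and 2.48 ± 0.44 (adjusted p = 0.00591) between the mural classes. Tpm1 was higher in both mural classes too, with 29.3 to 46.7 per 10000 in smooth muscle wells and 7.77 to 15.8 in pericyte wells, against 5.99 to 8.94 in matrix-myofibroblast wells and 3.09 to 4.65 in other fibroblast wells, and it was higher in smooth muscle than in pericyte wells by 1.87 ± 0.35 (adjusted p = 0.00723).

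Tpm4, the tropomyosin gene that is mainly cytoskeletal, was lower in smooth muscle than in pericyte wells, as Myh9 was. It stood at 4.14, 2.53 and 3.32 per 10000 in smooth muscle wells and 13.1, 7.12 and 10.3 in pericyte wells. Matrix-myofibroblast wells had 5.55, 6.85, 7.1 and 8.9 per 10000 and other fibroblast wells 3.29, 3.75, 4.3 and 5.19. All smooth muscle values were below all pericyte and matrix-myofibroblast values and within the range of the other fibroblast wells or under it. The fold change of Tpm4 was -1.43 ± 0.33 (adjusted p = 0.0226) in smooth muscle against pericyte wells, -1.11 ± 0.30 (adjusted p = 0.0251) against matrix-myofibroblast wells, and 1.05 ± 0.26 (adjusted p = 0.0204) in pericyte against other fibroblast wells. With smooth muscle set by Myh11 neither lower call held: Tpm4 was at -0.47 (adjusted p = 0.336) against pericyte wells and -0.22 (adjusted p = 0.607) against matrix-myofibroblast wells.

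Cald1 (caldesmon), which is made in smooth muscle and nonmuscle forms that a count by gene does not separate, was shared by the mural classes. It stood at 16.5, 17.5 and 11.6 per 10000 in smooth muscle wells and 12.9, 9.16 and 11.4 in pericyte wells, against 7.41, 6.44, 7.39 and 8.49 in matrix-myofibroblast wells and 7.33, 2.94, 3.86 and 4.04 in other fibroblast wells. The mural ranges overlapped, with 0.33 ± 0.32 (adjusted p = 0.63) between them, and the fold change against other fibroblast wells was 1.63 ± 0.28 (adjusted p = 0.00191) in smooth muscle wells and 1.30 ± 0.29 (adjusted p = 0.0107) in pericyte wells. The calponins of nonmuscle cells, Cnn2 and Cnn3, were called in no comparison. Cnn2, which has a CArG box, stood at 2.37 to 6.62 per 10000 in smooth muscle wells, 3.09 to 7.17 in pericyte wells, 3.25 to 6.33 in matrix-myofibroblast wells and 1.38 to 2.48 in other fibroblast wells. Its fold changes against other fibroblast wells were close to each other at 1.03 ± 0.41 (adjusted p = 0.125), 1.05 ± 0.39 (adjusted p = 0.124) and 1.16 ± 0.35 (adjusted p = 0.0703) in the smooth muscle, pericyte and matrix-myofibroblast wells.

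Of the intermediate filament and dense body genes, Des behaved unlike the rest. Des encodes desmin, the intermediate filament of muscle, and is also a pericyte marker. It was at 0, 24.4 and 14.1 per 10000 in smooth muscle wells and 3.77, 6.25 and 5.24 in pericyte wells. Matrix-myofibroblast wells had 0, 0.347, 0.298 and 0.41 per 10000 and other fibroblast wells 0.0671, 0.331, 1.45 and 0.6. No desmin transcript was counted in the 6 smooth muscle wells of tumour 1, while the 3 pericyte tumours were close together. Tumour 1 had little Des in its other sums too, with 0 transcripts in matrix-myofibroblast wells and 1 in other fibroblast wells. In single wells pooled over the tumours, Des was at 0 in 18 of 27 smooth muscle wells, against 9 of 43 pericyte wells. The median well had 0 per 10000 in smooth muscle and 3.33 in pericyte wells. The median smooth muscle well was shallower (6125 transcripts, against 10467 in pericyte wells). Wells were also thinned to 3000 UMIs, for which 7 smooth muscle and 5 pericyte wells were too shallow. Des was then at 0 in 13 of 20 smooth muscle wells, against 16 of 38 pericyte wells. Both sets of counts mix class with tumour. Tumour 1 gave 6 smooth muscle wells and 1 pericyte well, and tumour 2 gave 3 and 19. In smooth muscle wells with Myh11 of at least 10 per 10000, Des was at 0, 24.4 and 0.459 in tumours 1, 3 and 4. Only 5 smooth muscle wells reached 10 per 10000, 3 in tumour 3 and 2 in tumour 4; 2 of the 5 passed both mural rules and 2 had Acta2 under 10 per 10000. The test called Des higher in smooth muscle than in pericyte wells, by 1.63 ± 0.44 (adjusted p = 0.0466), and 15 of 31 alternative settings did so, so this call rests on a few wells. Against other fibroblast wells its fold change was 4.25 ± 0.45 (adjusted p = 7.27e-05) in smooth muscle wells and 2.62 ± 0.40 (adjusted p = 0.00107) in pericyte wells; in pericyte wells it was 3.59 ± 0.43 (adjusted p = 0.000325) against matrix-myofibroblast wells.

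Pdlim3 and Pdlim7 carry PDZ and LIM domains and bind α-actinin or tropomyosin at actin anchor points. Pdlim3 stood at 8.28, 7.22 and 9.02 per 10000 in smooth muscle wells, against 0.58, 1.03 and 0.68 in pericyte wells, 0.419, 0.0744, 0.697 and 0.155 in matrix-myofibroblast wells and 1.48, 0.239, 0.927 and 0.654 in other fibroblast wells. Smooth muscle wells alone stood out, with 3.03 ± 0.37 (adjusted p = 0.000124) against other fibroblast wells and 2.85 ± 0.46 (adjusted p = 0.00435) against pericyte wells; pericyte wells had 0.18 ± 0.42 (adjusted p = 0.863) against other fibroblast wells. The Pdlim3 levels of matrix-myofibroblast wells rest on 5, 9, 56 and 11 transcripts in tumours 1 to 4. They were below those of other fibroblast wells in every tumour, with -1.28 ± 0.36 (adjusted p = 0.0524). For this difference, 11 of 32 alternative settings gave a call, 1 of them with the sign turned. Pdlim7 was also higher in smooth muscle wells, with 1.36 ± 0.35 (adjusted p = 0.0395) in smooth muscle against pericyte wells. Csrp1, a LIM protein of smooth muscle, was also higher in smooth muscle wells (14.2 to 37.9 per 10000) than in pericyte wells (6.06 to 9.05 per 10000), by 1.58 ± 0.36 (adjusted p = 0.0201). Synpo2, an actin-bundling protein of the Z-disc and dense body, was called in smooth muscle wells against other fibroblast wells, but it stood at 3.86, 2.41 and 0 per 10000 there, with 0 in tumour 4. Synm (synemin), which copolymerises with desmin, stayed at or under 2.53 per 10000 in every class and was called in no comparison.

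Among the crosslinkers, both mural classes were called higher than other fibroblast wells for the 2 α-actinins, and smooth muscle wells alone for filamin. Actn1 stood at 8.14, 18.3 and 7.59 per 10000 in smooth muscle wells and 9.54, 7.57 and 5.11 in pericyte wells. Matrix-myofibroblast wells had 4.12, 5.54, 5.39 and 6.98 per 10000 and other fibroblast wells 2.96, 1.96, 1.77 and 2.06. All tumours of the smooth muscle, pericyte and matrix-myofibroblast classes were above all other fibroblast values. Pericyte values overlapped with those of both other classes, while smooth muscle values lay above the matrix-myofibroblast ones. The fold change of Actn1 was 2.28 ± 0.36 (adjusted p = 0.00108) in smooth muscle wells, 1.53 ± 0.36 (adjusted p = 0.0142) in pericyte wells and 1.33 ± 0.32 (adjusted p = 0.0275) in matrix-myofibroblast wells. Actn4, with 2.07 to 7.95 per 10000 in smooth muscle wells and 3.47 to 5.26 in pericyte wells, against 1.76 to 2.28 in matrix-myofibroblast wells and 1.34 to 1.61 in other fibroblast wells, differed by 0.05 ± 0.34 (adjusted p = 0.964) between the mural classes. Flna, filamin A, stood at 43.5, 54.6 and 37.8 per 10000 in smooth muscle wells and 11.5, 10.8 and 7.97 in pericyte wells. Matrix-myofibroblast wells had 11.1, 6.48, 6.43 and 6.86 per 10000 and other fibroblast wells 11.3, 3.7, 4.67 and 4.5. Smooth muscle wells lay far above the rest for Flna, with 2.85 ± 0.29 (adjusted p = 6.4e-05) against other fibroblast wells and 1.98 ± 0.32 (adjusted p = 0.00437) against pericyte wells. The pericyte and fibroblast ranges of Flna met only through tumour 1, which has no pericyte sum. In tumours 2 to 4 the pericyte values lay above both fibroblast classes. The pericyte fold change was 0.87 ± 0.29 (adjusted p = 0.0831) against other fibroblast wells, and 14 of 32 alternative settings called it.

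The adhesion genes also fell into shared and smooth muscle parts. Itgb1, the β1 integrin chain, stood at 17.4, 21.3 and 11.9 per 10000 in smooth muscle wells and 13.3, 15.2 and 12.5 in pericyte wells. Matrix-myofibroblast wells had 7.82, 8.19, 7.85 and 8.54 per 10000 and other fibroblast wells 6.79, 4.83, 5.63 and 5.99. The mural ranges overlapped and lay above both fibroblast classes, with 1.38 ± 0.25 (adjusted p = 0.00236) in smooth muscle wells and 1.09 ± 0.24 (adjusted p = 0.0118) in pericyte wells against other fibroblast wells and 0.29 ± 0.28 (adjusted p = 0.611) between them. Vcl (vinculin) and Tln1 (talin), which tie integrins to actin, were higher in both mural classes: Vcl by 2.42 ± 0.33 (adjusted p = 0.000293) in smooth muscle wells and 1.24 ± 0.32 (adjusted p = 0.0246) in pericyte wells, and Tln1 by 1.75 ± 0.23 (adjusted p = 0.000253) in smooth muscle wells and 0.84 ± 0.23 (adjusted p = 0.0302) in pericyte wells. Neither was called between the mural classes, where the fold change was 1.19 ± 0.38 (adjusted p = 0.0871) for Vcl and 0.91 ± 0.26 (adjusted p = 0.0617) for Tln1.

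Itga5, the α5 chain of the fibronectin receptor, did not follow its partner Itgb1. It stood at 2.89, 3.85 and 3.8 per 10000 in smooth muscle wells and 1.01, 0.49 and 0.68 in pericyte wells. Matrix-myofibroblast wells had 0.587, 1.43, 1.95 and 2.71 per 10000 and other fibroblast wells 0.671, 1.34, 1.04 and 1.44. Pericyte wells were at the low end and smooth muscle wells at the high end. Itga5 was higher in smooth muscle than in pericyte wells by 2.66 ± 0.41 (adjusted p = 0.00368), higher in smooth muscle than in matrix-myofibroblast wells by 1.13 ± 0.33 (adjusted p = 0.0389), and lower in pericyte than in matrix-myofibroblast wells, with -1.52 ± 0.34 (adjusted p = 0.0171). Lpp, a zyxin relative abundant in smooth muscle, stood at 19 to 41.2 per 10000 in smooth muscle wells, against 3.95 to 7.53 in pericyte wells, 3.84 to 5.54 in matrix-myofibroblast wells and 3.59 to 6.25 in other fibroblast wells, and differed between the mural classes by 2.11 ± 0.32 (adjusted p = 0.00309). Zyx (zyxin) itself stood at 1.38 to 2.37 per 10000 in smooth muscle wells, 1.09 to 2.84 in pericyte wells, 1.78 to 2.53 in matrix-myofibroblast wells and 0.671 to 2.45 in other fibroblast wells, and was called in no comparison. Fblim1, which links filamin to adhesions, was called in smooth muscle wells with 1.35 ± 0.30 (adjusted p = 0.00874) against other fibroblast wells, and its smooth muscle values spread widely (6.34, 2.53 and 1.19 per 10000).

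Set directly against each other, smooth muscle wells were higher than pericyte wells for 18 of the 36 genes and lower for 2, Myh9 and Tpm4; of all genes tested, 2.79% were called higher and 2.69% lower, 5.48% in all. The 18 were Acta2, Myh11, Myl9, Myl6, Mylk, Tagln, Cnn1, Tpm1, Tpm2, Smtn, Lmod1, Des, Csrp1, Pdlim3, Pdlim7, Flna, Lpp and Itga5. Of the 15 genes called higher than other fibroblast wells in both mural classes, 6 were not called between them: Cald1, Actn1, Actn4, Vcl, Tln1 and Itgb1. With smooth muscle set by Myh11, 20 genes were higher and none lower than in pericyte wells, and 27 higher and none lower than in matrix-myofibroblast wells, and Myh9 and Tpm4 were called in neither. No gene was called lower than in pericyte wells either with only the sums of the 2 classes (13 higher) or at a marker level of 5 (14 higher). The shares of all genes called in the alternative fits of this paragraph are not given here. The absence of a call for the 6 genes is not a sign of equal levels, since the standard errors were 0.26 to 0.40. Only tumours 3 and 4 had both mural classes, and the calls rest on both: without tumour 3 the count was 2 (Pdlim3 and Lpp), and without tumour 4 edgeR called 0, with 23 of 36 at an unadjusted p under 0.05 and a median log2 fold change of 1.45.

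Against matrix-myofibroblast wells, smooth muscle wells were higher for 24 of the 36 genes and lower for Myh9 and Tpm4, against 5.67% of all genes higher and 6.1% lower. Of the 24, Des and Synpo2 passed the low-count filter only with the other classes in the fit. With only the smooth muscle and matrix-myofibroblast sums, 33 of 36 genes could be tested and 19 were called. Pericyte wells were higher than matrix-myofibroblast wells for 8 genes and lower for Itga5, against 2.67% and 2.72% of all genes. The 8 were Acta2, Myh11, Myl9, Mylk, Cnn1, Lmod1, Des and Synpo2. Cnn1, Lmod1 and Synpo2 passed the low-count filter only with the other classes in the fit. With only the sums of the 2 classes, 33 of 36 genes could be tested and 4 were called: Myh11, Mylk, Des and Actn4. Without tumour 2 this comparison had 2 calls, and without the tumour block 4. For the alternative fits of this paragraph the shares of all genes called are not given here.

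**Figure D3:**
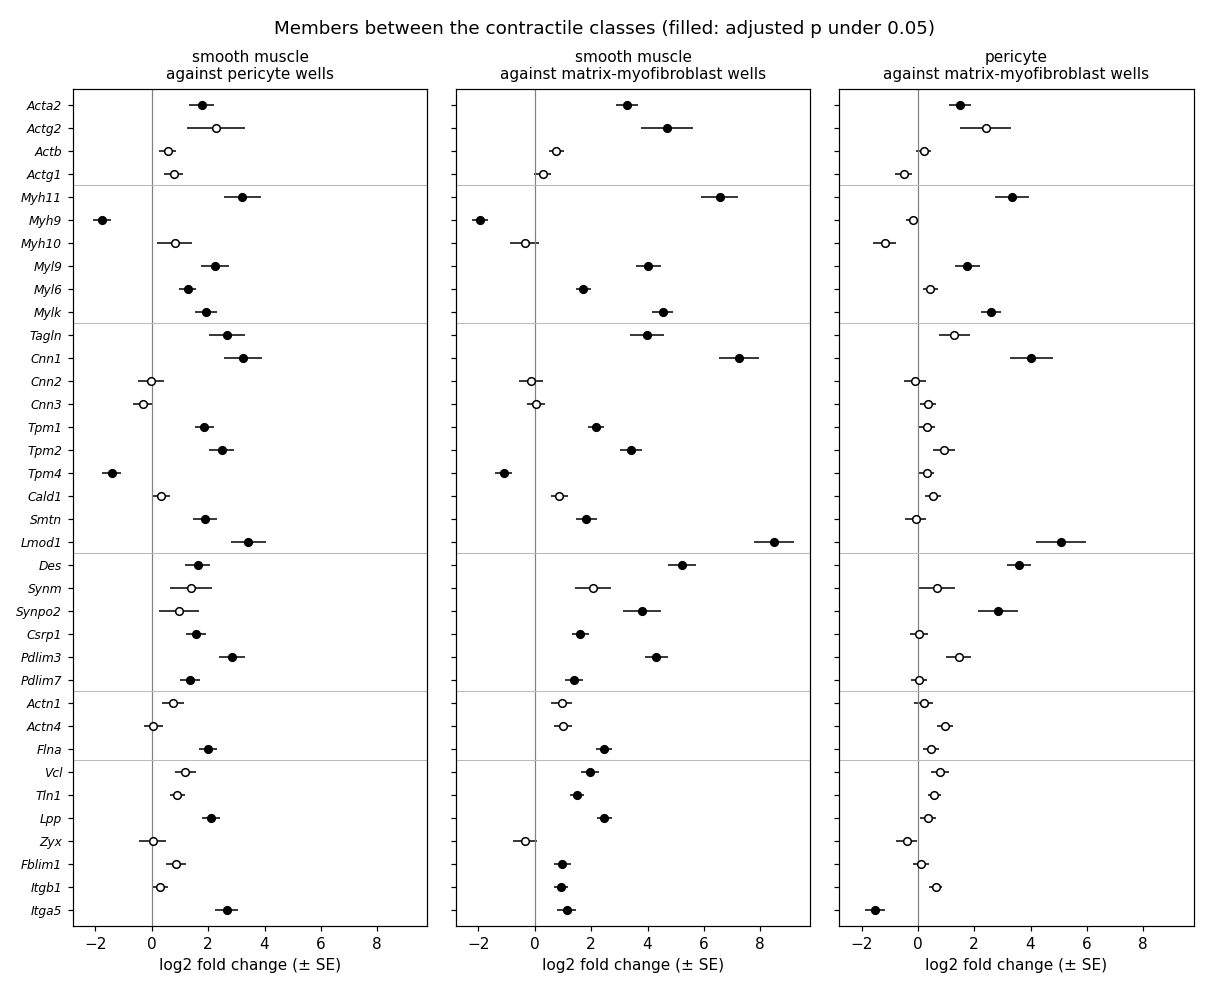
Log2 fold change (x axis, bars: standard error) of the 36 genes (rows, by role as in the plot against other fibroblast wells) in smooth muscle against pericyte wells, smooth muscle against matrix-myofibroblast wells and pericyte against matrix-myofibroblast wells; filled points have an adjusted p under 0.05. In the first 2 panels Myh9 and Tpm4 are the filled points left of 0, and in the third Itga5 is.

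The pericyte calls also moved with single tumours. Pericyte wells of tumour 2 had the highest level of Acta2, Tagln and Myl9 of the 3, and without tumour 2 the count against other fibroblast wells was 3 of 36 (Acta2, Mylk and Des). Without tumour 4 it was 4 (Acta2, Mylk, Des and Synpo2), and without tumour 1, where no pericyte sum exists, it was 20. Acta2, Mylk and Des were thus called whichever tumour was left out, with log2 fold changes of 1.87 to 2.80, 2.05 to 2.68 and 2.37 to 3.01. The shares of all genes called in these fits are not given here, so the counts alone do not set the 36 genes apart. The cycling markers summed to 2.31 to 5.01 per 10000 in pericyte wells, against 0.235 to 1.89 in other fibroblast wells; their part in these results was not tested.

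The fibroblast classes differed little from each other in these genes, and their comparison moved with the few fibroblast wells that had Myh11. Among the other fibroblast wells of tumour 1, 2 of 22 had Myh11 of at least 10 per 10000 and carried 13.5% of that sum's transcripts. Without them the tumour 1 level was 4.73 per 10000 for Acta2, 1.27 for Myh11 and 0.0705 for Tagln, against 17.8, 8.33 and 4.19 with them. With such wells left out of both fibroblast classes, an alternative added after the data were seen, 8 of 36 genes were called higher in matrix-myofibroblast than in other fibroblast wells. These were Acta2 1.74 (adjusted p = 0.00875), Actg2 2.68 (adjusted p = 0.015), Tagln 2.18 (adjusted p = 0.0106), Tpm1 1.08 (adjusted p = 0.0345), Tpm2 1.21 (adjusted p = 0.0221), Cald1 0.94 (adjusted p = 0.0241), Myh9 1.12 (adjusted p = 0.00439) and Actn1 1.64 (adjusted p = 0.00328). Myh9 and Actn1 are thus the calls common to both fits; without tumour 1 or 3 the count was 5 or 3 of 36, and without tumour 2 or 4 edgeR called 0, with 10 or 9 at an unadjusted p under 0.05. DESeq2, the other tool run, called 6 with all tumours, 5 higher and 1 lower, against 6.96% of all genes in either direction. The shares of all genes called in the other alternative fits named in this paragraph are not given here.

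**Figure D4:**
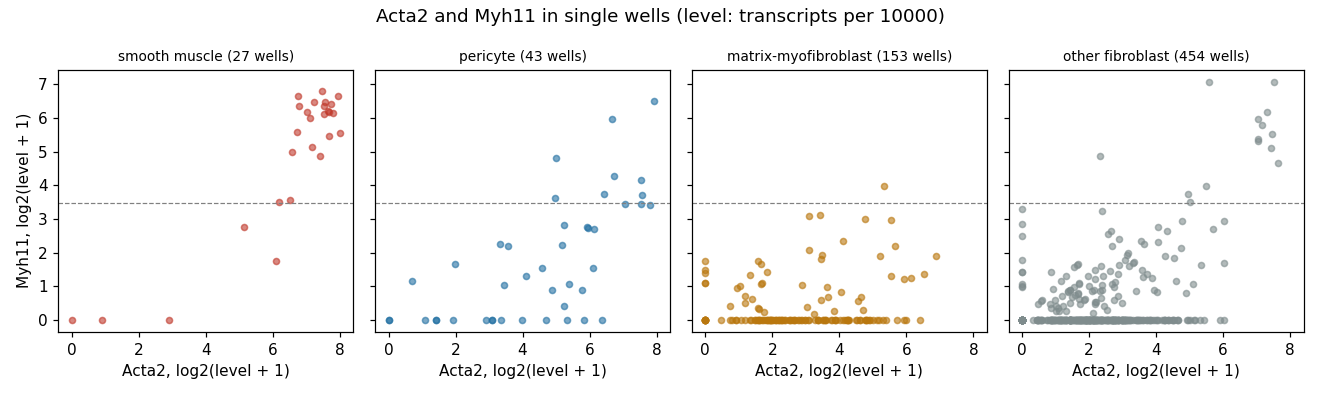
Acta2 (x axis) and Myh11 (y axis) in single wells as log2(level + 1), with the level in transcripts per 10000, in the 4 classes; the dashed line is a Myh11 level of 10. Of the smooth muscle wells 22 of 27 are on or above the line, of the pericyte wells 8 of 43, of the matrix-myofibroblast wells 1 of 153 and of the other fibroblast wells 14 of 454.

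Single wells show how far a class mean speaks for its cells. Acta2 reached 100 per 10000 in 19 of 27 smooth muscle wells and 8 of 43 pericyte wells, against 1 of 153 matrix-myofibroblast wells and 9 of 454 other fibroblast wells. The median well had 144, 30.9, 5.39 and 2.91 per 10000 in these classes. Free RNA can give a well transcripts of a gene its cell lacks. The 39 wells that passed the red cell rule summed to 3.19 per 10000 for Acta2, 0.443 for Myh11 and 0.62 for Tagln. Those wells had a median of 2680 transcripts, against 8203 in other fibroblast wells. The red cell rule was applied whatever else a well expressed. With wells that passed another type's rule kept, other fibroblast wells numbered 494 in place of 454. The red cell wells may thus hold stromal cells, and their values do not measure free RNA. In tumours 2 to 4 the other fibroblast wells had 4.64 to 6.46 per 10000 of Acta2 and 0.482 to 0.799 of Myh11. Over all 4 tumours, 334 of 454 other fibroblast wells had no Myh11 transcript and 14 had at least 10 per 10000. With fibroblast wells of that Myh11 level left out, other fibroblast wells had 0.187 to 1.27 per 10000 of Myh11 by tumour. Whether free RNA gave the Myh11 transcripts of fibroblast wells was not tested. Actb reached 10 per 10000 in nearly all wells, 26 of 27 in smooth muscle, 43 of 43 in pericyte, 151 of 153 in matrix-myofibroblast and 431 of 454 in other fibroblast wells.

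Contractile fibroblasts can also be set by their own actin. The 25% of fibroblast wells in each tumour with the highest mean log2(level + 1) of Acta2 and Tagln was taken, with Myh11 wells left out. By this rule 148 wells stood against 444, and 69 of the 148 were also matrix-myofibroblast wells. These values describe wells chosen by 2 of the genes and carry no test. Of the other 34 genes, 26 were higher in the high wells in all 4 tumours, and for 21 the tumours of the high and the low wells did not overlap. The same counts were not made over all genes, so it is not known how many other genes would do so. Actg2 was at 0.765 ± 0.172 per 10000 in high wells and 0.123 ± 0.045 in low wells (SD, n = 4 tumours). Myl9 was at 2.56 ± 0.806 in high wells and 0.535 ± 0.163 in low wells, and Cnn2 at 5.82 ± 1.76 in high wells and 1.55 ± 0.338 in low wells. Actn1, the gene called in all 3 classes, was at 5.73 ± 0.533 in high wells and 2.01 ± 0.402 in low wells. The genes of differentiated muscle were low in both: Cnn1 was at 0.123 ± 0.135 per 10000 in high wells and 0.062 ± 0.0876 in low wells, and Lmod1 at 0.0403 ± 0.0453 in high wells and 0.00829 ± 0.0166 in low wells. Zyx was at 2.01 ± 0.375 in high wells and 2.04 ± 0.531 in low wells, and Itga5 at 1.46 ± 0.716 in high wells and 1.23 ± 0.42 in low wells.

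Across these fibroblast wells, thinned to 3000 UMIs each, the rank correlation of single members with the sum of Acta2 and Tagln was weak, and it is a description without a test. In tumours 2 to 4 it was 0.28 to 0.45 for Tpm1, 0.28 to 0.40 for Csrp1 and 0.27 to 0.43 for Myl9, which were among the highest, and -0.08 to 0.05 for Synpo2, 0.01 to 0.03 for Des, 0.01 to 0.05 for Synm and -0.09 to 0.06 for Zyx, which lay near 0, over 144 to 172 wells per tumour, which share a library.

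Genes around the contractile apparatus were taken from a list of 56 regulators and partners, of which 47 could be tested. In smooth muscle wells 24 of 47 were higher than in other fibroblast wells and 1 lower, in pericyte wells 7 higher and 1 lower, and in matrix-myofibroblast wells 0 by edgeR, with 11 at an unadjusted p under 0.05 and 2 called by DESeq2. Of all genes tested, 5.34% were higher and 7.19% lower in smooth muscle wells, 4.12% and 5.07% in pericyte wells, and 2.3% and 2.95% in matrix-myofibroblast wells. The median log2 fold change of the list was 1.18, 0.27 and 0.19 in these 3 comparisons, against -0.08, -0.00 and -0.01 over all genes. Among the largest changes in smooth muscle wells were Nexn 4.06 ± 0.51 (nexilin, an actin binder), Prkg1 2.97 ± 0.62 (the cGMP-dependent kinase that relaxes smooth muscle), Cryab 2.95 ± 0.53 (a chaperone of desmin), Ckb 2.76 ± 0.35 (brain-type creatine kinase) and Ppp1r12a 2.75 ± 0.33 (the targeting subunit of myosin phosphatase). In pericyte wells they included Prkg1 2.57 ± 0.47, Pxn -1.91 ± 0.52 (paxillin), Vasp 1.45 ± 0.39 (an actin elongation factor), Mprip 1.18 ± 0.28 (a partner of myosin phosphatase) and Ptk2 1.18 ± 0.28 (focal adhesion kinase). Prkg1 was among the largest in both mural classes, and paxillin was the 1 gene of the list that was lower in pericyte wells.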

How the data were processed

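Per the labels' protocols, cells were sorted into plates, lysed and processed by SORT-seq with CEL-Seq2 libraries. The submitters' processing notes name the tool BWA and the build mm10; how reads were counted, the use of strand and the sort gate were not given. As deposited, the values are expected counts that the authors corrected for UMI saturation: each value above 0 matched a corrected whole number of UMIs out of 4096 within 0.00498. Genes absent from a plate's table were set to 0, and values were rounded per well before summing. Wells share position names across plates by design; no doublets were removed. Gene totals of the plates differed, with chi-squares per degree of freedom of 5.06 to 57.3, so none was a copy.

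Levels and sums were computed with Python 3.11.15, numpy 2.4.6 and pandas 2.3.3. Sums of at least 5 wells per class and tumour (14 in all) entered 1 edgeR 4.0.16 fit (R 4.3.3; TMM, filterByExpr, terms for class and tumour, quasi-likelihood test, Benjamini-Hochberg adjustment without the class markers), after a run on simulated counts. DESeq2 1.42.0 was an alternative, with others on filters, class rules and left-out tumours. Tumours were numbered from the titles, and tumour served as a block because the classes came from the same tumours. All 36 genes are named; of the list of regulators, up to 6 of the largest called changes per comparison with other fibroblast wells are named, except 1 that is not reported here. Genes and lists were chosen with earlier results of these data known. Depth was 612734 to 3165550 transcripts a plate.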

Additional observations from a re-analysis of the deposited data

Results flagged for a closer look

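Among the 36 genes in both fibroblast classes, 72 groups of 4 tumours were examined for a tumour far from the other 3, and 16 had one; chance gives about 1 in 20. In tumour 1 the other fibroblast wells were high for Acta2 (17.8 per 10000, others 4.64 to 6.46), Actg2 (5.83), Myh11 (8.33), Myl6 (14.7), Mylk (4.58), Tagln (4.19), Cnn1 (1.01), Lmod1 (0.336), Flna (11.3) and Vcl (1.88), and low for Zyx (0.671, others 2.25 to 2.45). The 2 wells with Myh11 of at least 10 per 10000 were 13.5% of the transcripts there, and without them Acta2 was at 4.73, Actg2 at 0.141, Tagln at 0.0705 and Flna at 5.93 per 10000.

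In tumour 1 the matrix-myofibroblast wells were high for Mylk (3.53 per 10000, others 0.887 to 1.32), Lmod1 (0.0838, others 0 to 0.0141) and Flna (11.1, others 6.43 to 6.86), and low for Pdlim7 (0.754, others 1.57 to 1.73). That sum has 8 wells, and its Lmod1 level is 1 transcript. In tumour 3 the matrix-myofibroblast wells were low for Tln1 (2.15, others 2.46 to 2.52).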

How the results depend on the processing

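Counts are of the 36 genes called. The share of all genes called moved with the setting too, so these counts alone do not set the 36 genes apart from the rest. In smooth muscle against other fibroblast wells that share was 12.5% in the main fit, 15.1% with DESeq2 and 5.52% without the low-count filter. In smooth muscle against other fibroblast wells (28 called) every alternative gave 21 to 29 except a marker level of 20 per 10000, which gave 16. In smooth muscle against matrix-myofibroblast wells (26) that level gave 15, in smooth muscle against pericyte wells (20) it gave 2, and in pericyte against matrix-myofibroblast wells (9) it gave 19; it leaves 1 smooth muscle sum, which is assumed to vary like the other classes. Smooth muscle against pericyte wells had 13 with only the sums of the 2 classes or with 2 markers, and 10 with sums of at least 3 wells. Pericyte against other fibroblast wells (17) had 11 without wells passing both mural rules. Pericyte against matrix-myofibroblast wells had 4 with only the sums of the 2 classes, with a marker level of 5, with smooth muscle set by Myh11 or with contractile fibroblasts set by Acta2 and Tagln, and 5 when Myh11 wells were also left out of the last.

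The fibroblast comparison (2 called) had 1 with sums of at least 3 wells, 4 with a marker level of 5 or without smooth muscle wells lacking Myh11, 5 with the highest-scoring wells set wider (1 in 3) or at most 20% mitochondrial, and 6 with DESeq2, narrower (10%) or at most 50% mitochondrial. It had 7 with sums of at least 10 wells, a marker level of 20, 4 markers, Myh11-set smooth muscle or summed markers, 3 with whole UMIs, 8 without the low-count filter, with only 2 classes or without fibroblast wells with Myh11, and 9 with all 3 marker conditions. Setting contractile fibroblasts by Acta2 and Tagln gave 17, and 12 without Myh11 wells.

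Without the tumour block, which pairs classes of the same tumour, the counts were 10 for pericyte against other fibroblast wells, 4 for pericyte against matrix-myofibroblast wells and 0 for the fibroblast comparison (9 at an unadjusted p under 0.05), and within 1.5 times for the others (25, 26 and 17). Leaving out 1 tumour gave 21 to 27, 3 to 20 and 0 to 5 for smooth muscle, pericyte and matrix-myofibroblast against other fibroblast wells, 0 to 17 for smooth muscle against pericyte wells, and 18 to 23 and 2 to 9 for smooth muscle and pericyte against matrix-myofibroblast wells. Sums of at least 10 wells left no smooth muscle sum, so that alternative gave no value there.

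Signs turned for Itgb1 (-0.03 against other fibroblast and -0.40 against matrix-myofibroblast wells), Fblim1 (-0.04 against matrix-myofibroblast wells) and Des (-0.40 against pericyte wells) in smooth muscle wells at a marker level of 20, and under the Acta2 and Tagln rule for Myh11 (2.55), Mylk (1.92; 1.51 without Myh11 wells), Cnn1 (3.26), Lmod1 (3.36) and Pdlim3 (1.48). That rule puts other wells in the contractile class; beyond each alternative's own construction, the cause was not tested. Depth limits Lmod1, Cnn1, Synpo2, Myh10, Actg2, Myh11, Synm and Pdlim3, which stood under 1 transcript per 10000 in fibroblast wells of tumours 2 to 4.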
